A study of Drosophila melanogaster with 4 samples.

Results

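The cytochrome P450 genes of family 313 were described in heads of adult male fruit flies, as ratios between flies fed ethosuximide and flies kept on normal food. Clones on the array were taken whose annotation named a single gene of this family and that had a value on at least 1 of 4 arrays. This left 4 clones from 4 genes, Cyp313a1, Cyp313a3, Cyp313a5 and Cyp313b1, among 3769 named genes with a value. The genes were singled out with the drug ratios of these same arrays in view, since Cyp313a1 was known to be low, so their ratios are a description and carry no test.

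Drug-fed and normal-food flies were unmated Oregon-R males aged 10 to 11 days, kept at 30 flies per vial. The drug-fed flies received 3.48 mg/ml of ethosuximide, an anticonvulsant known for blocking T-type calcium channels, in their food for 3 days, and the other flies received food without it for the same time. Head RNA of both came from pools of flies, and each of 4 spotted cDNA arrays of 2 colours compared 1 drug-fed pool with 1 normal-food pool. The drug sample carried Cy5 on arrays 1 and 2 and Cy3 on arrays 3 and 4. Because each value is a ratio, the level of a gene in either group is not known, and fewer cells of a type cannot be told apart from less RNA per cell.

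Cytochrome P450 enzymes are haem proteins that insert an oxygen atom into their substrates, with electrons passed on by a reductase partner. In insects they make and break down hormones, oxidise fatty acids and attack foreign compounds such as drugs and insecticides. Family 313 belongs to the same large P450 clan as family 4. Neither the files nor the annotation used here gives a substrate for any of its members. In RefSeq's Release 6 gene order, Cyp313a5, Cyp313a2 and Cyp313a3 lie side by side with no other protein-coding gene between them, while Cyp313a1, Cyp313a4 and Cyp313b1 each stand alone.

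The family was thinly measured except for Cyp313a1. Of 6 family members printed, Cyp313a2 and Cyp313a4 had no value on any array. A second clone of Cyp313a5 and a second clone of Cyp313b1 had none either, so that 4 of 8 clones (50.0%) had a value, against 44 of 134 clones (32.8%) for all P450 genes and 4046 of 7558 (53.5%) for all named genes. Cyp313a1 was measured on all 4 arrays. Cyp313a3 and Cyp313b1 had a value on array 1 alone and Cyp313a5 on array 2 alone. Of the 3 neighbours on the chromosome, no array measured more than 1. After the authors' filters arrays 1 to 4 held 5095, 3169, 1101 and 812 clones with a value, so a gene seen only on array 1 or 2 was not compared under the swapped dyes.

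All signs below rest on reading the deposited values as log2 of Cy5 over Cy3, because Cy5 is channel 1 and Cy3 channel 2 on each array per the labels. On that reading arrays 3 and 4 are turned to give drug over normal food. The numerator and the log base are not stated, and the direction remained unsettled. The medians of the 980 clones with a value on at least 3 arrays were 0.74, 0.16, -0.24 and -0.63 on arrays 1 to 4 after turning. A ratio is therefore also given centred, that is, relative to the median of these 980 clones on its own array. Over all clones with a value the medians were 0.73, 0.008, -0.18 and -0.59 on arrays 1 to 4. On array 2 most clones therefore lie below a centred 0.

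Cyp313a1 had a log2 ratio of drug over normal food of -0.15, -0.73, -1.14 and -1.15 on arrays 1 to 4. It was below 0 on every array, with the swapped arrays lower than the others. Centred, the values were -0.89, -0.89, -0.90 and -0.51. Arrays 1 to 3 then lay together and array 4 nearer to 0. Relative to the median of all clones with a value on each array, the values were -0.89, -0.74, -0.96 and -0.55. The closeness of arrays 1 to 3 thus depends on the set of clones used for centring. The mean was -0.79 ± 0.47 (SD, n = 4) before centring and -0.80 ± 0.19 (SD, n = 4) after it. With arrays 3 and 4 turned, the centred mean placed the ratio of Cyp313a1 1.74-fold below the median ratio of the clones used for centring. With no column turned, the centred mean was -0.09 ± 0.94 (SD, n = 4). Over the 366 clones with a value on all 4 arrays, the median SD between arrays was 0.64 before and 0.25 after centring.

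The 2 spots of the Cyp313a1 clone lay close together on each array. On array 1 they read -0.06 and -0.25, on array 2 -0.77 and -0.69, on array 3 -1.18 and -1.10, and on array 4 -1.19 and -1.11. The spots differed by 0.19, 0.08, 0.08 and 0.08 on arrays 1 to 4. The median difference between paired spots over all clones was 0.24, 0.18, 0.16 and 0.13 on the same arrays, so the pair of Cyp313a1 was closer than the typical pair on each. These spots share RNA and slide and are not replicates of the treatment.

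**Figure D1:**
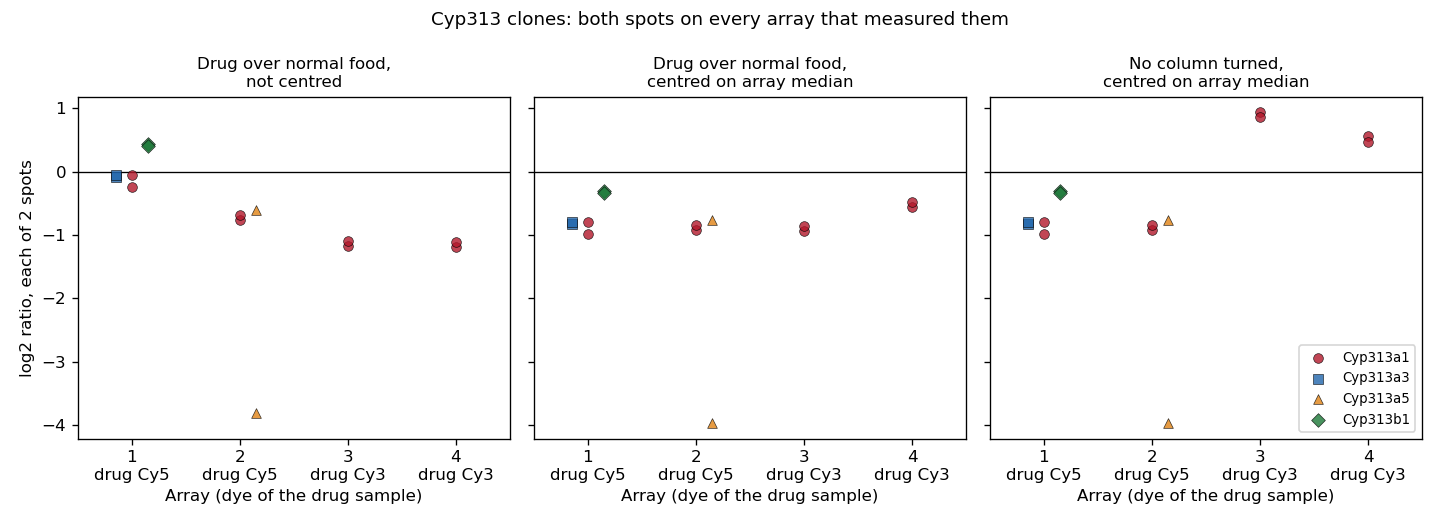
Log2 ratios of both spots of the 4 Cyp313 clones on arrays 1 to 4, as drug over normal food before centring (left) and centred on the array's median (middle), and centred with no column turned (right). Cyp313a1 lies below 0 on every array in the left and middle panels, but on both sides of 0 in the right panel, and the spots of Cyp313a5 lie far apart.

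The rank of a clone within its array does not depend on centring, but on arrays 3 and 4 it depends on the turning. On array 1, 149 of 5095 clones (2.92%) had a lower ratio than Cyp313a1, and on array 2, 316 of 3169 (9.97%). On the swapped arrays 11 of 1101 clones (0.999%) were lower on array 3 and 30 of 812 (3.69%) on array 4. With arrays 3 and 4 turned, it thus lay in the lowest 10% of the clones measured on each array. With no column turned, the 11 and 30 clones would instead be those above it, and it would lie in the upper tail of arrays 3 and 4. By its mean over arrays, Cyp313a1 was the lowest of the 980 clones before centring and had 1 clone below it after centring, both with arrays 3 and 4 turned. With no column turned, 329 of the 980 had a lower centred mean. Of the 366 clones on all 4 arrays, 6 (1.64%) were below 0 on each before centring and 40 (10.9%) after it, Cyp313a1 among both with the same turning and among neither without it.

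**Figure D2:**
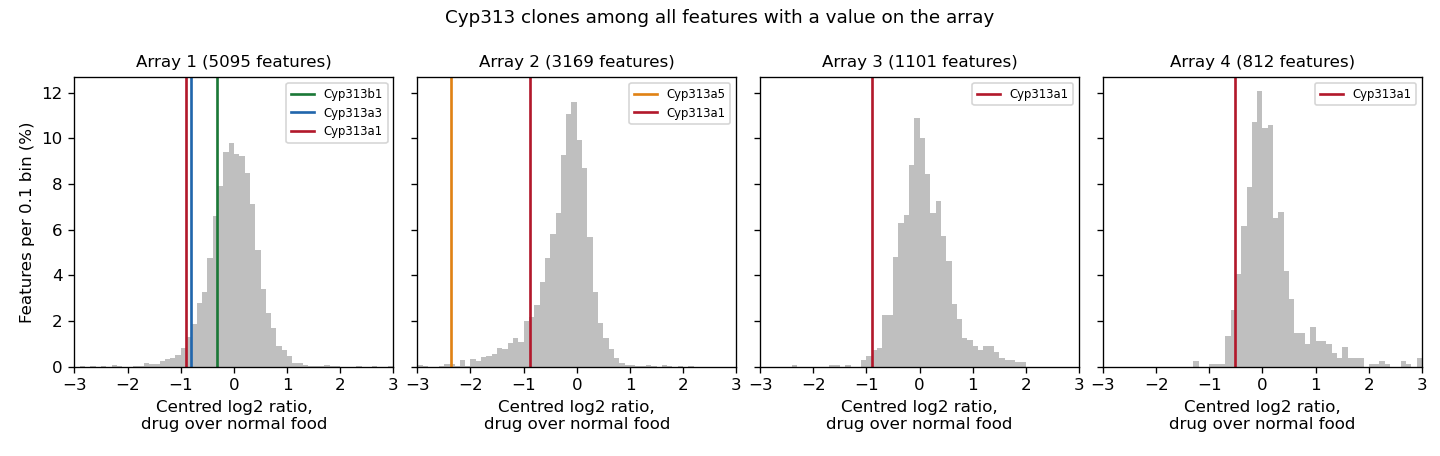
Share of clones (%) in bins of 0.1 of the centred log2 ratio of drug over normal food, for all clones with a value on each array, with the Cyp313 clones as vertical lines; ratios beyond ±3 are drawn in the end bins. With arrays 3 and 4 turned, Cyp313a1 lies in the lower tail on all 4 arrays, at -0.89, -0.89, -0.90 and -0.51; with no column turned it would be at 0.90 and 0.51 on arrays 3 and 4, in the upper tail.

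In limma's one-class fit 5 of the 980 clones (0.510%) passed an adjusted p of 0.05 before centring, all higher, and Cyp313a1 was not among them. That fit gave every clone the same variance. After centring 14 passed (1.43%), of which 2 were lower (0.204%), and Cyp313a1 was one of these 2. Nothing is drawn from that call, because the gene was chosen on the contrast that the fit tests.

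With the drug in Cy5 the centred ratio of Cyp313a1 averaged -0.89 (arrays 1 and 2), and with the drug in Cy3 it averaged -0.71 (arrays 3 and 4). Before centring the same means were -0.44 and -1.14. The agreement between dye orientations depends on the reading of the columns. If all 4 columns were already drug over normal food, the centred values of Cyp313a1 would be -0.89 and -0.89 on arrays 1 and 2 but 0.90 and 0.51 on arrays 3 and 4. Their mean would be -0.09 ± 0.94 (SD, n = 4), and 362 of the 366 clones would vary less between arrays. The arrays would then split by dye orientation in this gene, with no overlap between the pairs.

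The remaining members were single measurements. Cyp313a3 had a log2 ratio of -0.07 on array 1, with spots at -0.09 and -0.06. This was -0.81 after centring, close to the -0.89 of Cyp313a1 on that array, and 201 of 5095 clones (3.95%) were lower. Cyp313b1, the one member outside subfamily a, had 0.42 on array 1, with spots at 0.43 and 0.41. It was at -0.32 after centring, with 1121 of 5095 clones (22.0%) lower. Whether Cyp313b1 is called higher or lower with the drug thus turns on the centring of 1 array, and Cyp313a3 is near 0 or clearly below the array's median on the same ground.

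Cyp313a5 had the lowest value of the family, -2.21 on array 2, but its spots read -3.81 and -0.61. The difference of 3.20 between them was matched or exceeded in 9 of the 3161 pairs of that array (0.285%), this pair included. Centred, its second spot alone stood at -0.77, beside -0.89 for Cyp313a1 on the same array, and its first at -3.97. The value of Cyp313a5 therefore rests on which spot is taken, and only its sign is shared by both. With arrays 3 and 4 turned, all 4 members had a centred ratio below 0 on each array that measured them. However, these are 4 clones chosen with their values known, and 3 of them have 1 value, on array 1 or 2. On array 2 most clones were below 0 after centring, since their median was 0.008 and 0.159 was subtracted. On array 1 these were 0.73 and 0.74, so a value below 0 is common there too.

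Set against the other P450 genes, Cyp313a1 stood at one end of their range on arrays 1, 3 and 4. On arrays 3 and 4 it was the lowest of 9 and of 11 P450 genes with a value when the columns were turned, and it would be the highest of them with no column turned. On array 1 only Cyp4ae1 of 28 P450 genes was lower, while 3 genes were lower than Cyp313a3 and 6 were lower than Cyp313b1. On array 2 Cyp313a5 was the lowest of 23, and 7 genes including it were lower than Cyp313a1. The centred median of the P450 genes was 0.10 on array 1, -0.72 on array 2, 0.66 on array 3 and 0.83 on array 4, so that Cyp313a1 lay closest to the middle of its superfamily on array 2. Different P450 genes were measured on each array, and those medians do not follow the same genes.

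**Figure D3:**
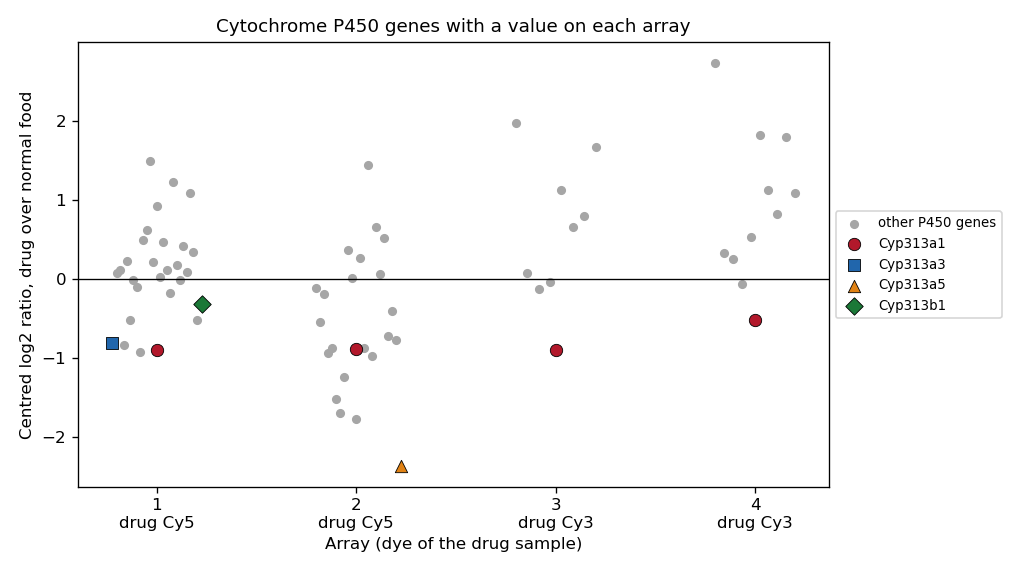
Centred log2 ratios of drug over normal food for every P450 gene with a value on arrays 1 to 4, clones of a gene averaged, with family 313 in colour and other P450 genes in grey. Cyp313a1 is the lowest P450 gene on arrays 3 and 4 as turned here, and would be the highest there with no column turned; Cyp313a5 is the lowest on array 2.

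A difference between 2 genes on the same array is free of the array's offset, so Cyp313a1 was also set against each of the other 7 P450 genes with values on at least 3 arrays. Cyp4e2 was the farthest from it. Cyp313a1 minus Cyp4e2 was -2.39, -2.33, -2.03 and -2.33 on arrays 1 to 4, a mean of -2.27 ± 0.16 (SD, n = 4). The distance varied little between arrays, both with the drug in Cy5 and with the drug in Cy3. Against Cyp4p1 it was -1.67 ± 0.13 (SD, n = 3). Against Cyp6a20, a gene linked to aggression between male flies, it was -1.61 ± 0.36 (SD, n = 4).

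The other 4 genes lay closer. The difference from Cyp28d1, a gene linked to the response to plant toxins, was -0.88 ± 0.14 (SD, n = 4), and it was again similar on all arrays. That from Cyp6d4 was -1.06 ± 0.61 (SD, n = 3) and that from Cyp4ac1 -0.79 ± 0.36 (SD, n = 4). Cyp4d21, also known as sxe1 and found mainly in males, gave -1.52, -0.01, -0.87 and -0.45 on arrays 1 to 4, a mean of -0.71 ± 0.64 (SD, n = 4). On array 2 it could not be told from Cyp313a1. For Cyp6d4 and Cyp4ac1 the value of array 1 came from another clone than those of the other arrays, and for Cyp4d21 the value of array 1 averaged 2 clones. Each of the 7 genes had a higher ratio than Cyp313a1 on each array that measured both. With no column turned, the differences on arrays 3 and 4 would change sign.

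**Figure D4:**
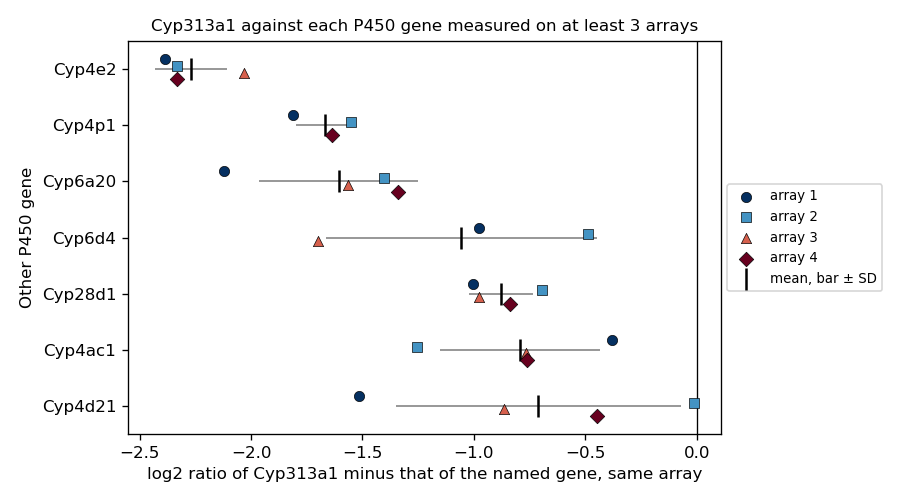
Log2 ratio of Cyp313a1 minus that of each of 7 other P450 genes on the same array; points are arrays 1 to 4, the tick is the mean and the bar the SD over arrays. As turned here no point lies above 0 (those of arrays 3 and 4 would with no column turned), and the points for Cyp4e2 and Cyp28d1 lie close together while those for Cyp4d21 spread from -1.52 to -0.01.

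The mean centred ratios of these 7 genes were 1.47 ± 0.28 for Cyp4e2, 0.81 ± 0.31 for Cyp6a20, 0.08 ± 0.21 for Cyp28d1, -0.0069 ± 0.40 for Cyp4ac1 and -0.09 ± 0.61 for Cyp4d21 (SD, n = 4). For genes on 3 arrays they were 0.90 ± 0.23 for Cyp4p1 and 0.16 ± 0.60 for Cyp6d4 (SD, n = 3). Their median was 0.16, with 5 of 7 above 0, and 0.38 before centring, with 6 of 7 above 0. Over all 515 named genes on at least 3 arrays the median was 0.02 after centring, with 276 (53.6%) above 0, and 0.10 before it, with 354 (68.7%) above 0. With arrays 3 and 4 turned, Cyp313a1 alone of the 8 P450 genes was below 0 on every array that measured it, before and after centring. With no column turned it was not, at 1.14 and 1.15 on arrays 3 and 4 before centring and 0.90 and 0.51 after it. P450 genes on fewer arrays are outside this comparison, and they lay on both sides of 0. Cyp28d2 was centred at -0.84 and -0.94 on arrays 1 and 2, the only arrays that measured it. Cyp4d2, measured on the same arrays alone, was centred at 0.50 and 0.27.

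Genes that work with P450 enzymes were hardly measured. Of 5 electron carriers and reductases listed (Cpr, Cyt-b5, dare, Fdx1 and Fdx2), Fdx2 alone was named on the array in the annotation used here, and it had no value. None of 6 P450 genes of ecdysone synthesis listed under their own names was named there. Of 6 regulators of detoxification genes listed, 4 were named on the array, and of these Hr96 and ss had no value. Keap1, which holds the stress regulator cnc in check, had centred ratios of 0.39 and 0.65 on arrays 1 and 2. maf-S, the partner of cnc on DNA, had 0.45, -0.10 and 0.12 on arrays 1 to 3, a mean of 0.16 ± 0.28 (SD, n = 3).

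The genes whose ratios were most like those of Cyp313a1 were sought among the other 183 named clones with values on all 4 arrays, by the root mean square difference of centred log2 ratios. Jhbp13, named for binding juvenile hormone, was nearest, at a difference of 0.35. Its centred ratios were -0.53, -0.61, -0.48 and -0.84 on arrays 1 to 4. Gbs-70E, a glycogen-targeting subunit of protein phosphatase 1, followed at 0.36, with -0.59, -0.29, -0.64 and -0.64. CG7781 came next at 0.40, with -0.62, -0.23, -0.97 and -0.18. As turned here, all 3 were below 0 on every array after centring, and each was nearer to 0 than Cyp313a1 on arrays 1 and 2. Because the 3 genes were picked for small differences from Cyp313a1, their shared sign follows largely from that choice. It is not a separate result.

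Marker genes could be used only to ask whether a spot passed the filters, since ratios hold no level. Values were present for 4 of 5 printed eye markers, 2 of 2 neuronal, 1 of 1 muscle, 5 of 6 fat body, 1 of 1 gut and 1 of 3 testis or accessory gland markers. Of all 6793 named genes, 3769 (55.5%) had a value, and a list with 1 or 2 printed markers says little about a tissue. The 3 eye markers on at least 3 arrays (inaD, Arr1 and chp) had centred means from -0.45 to 0.26, with a median of -0.35. The single marker of each other list had 0.13 for neurons (Sh), -0.43 for muscle (Act88F), 0.40 for fat body (FASN1), 0.09 for gut (Amyrel) and 0.44 for testis (ocn). The part of tissue make-up in the ratios of Cyp313a1 was not tested.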

How the data were processed

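The deposited log2 ratios, 1 column per array, were made by the authors from GenePix Pro 6.0 intensities, normalized by ratio in Acuity 4.0, per the series' design text. Spots under a raw intensity of 100, a signal-to-noise ratio of 3 or an R2 of 0.6 were left out there. Log base, numerator and centring are not stated, nor is a genome build given in the sources used here. Scanner files were not analysed here.

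Columns of arrays 3 and 4 were turned, and the 2 neighbouring spots of a clone were averaged, giving 13824 clones from 27648 spots. Of 15116 spots with 1 gene, 14894 matched a current symbol in RefSeq's Release 6 table. Clones of a P450 gene were averaged per array. Clones on at least 3 arrays were fitted in R 4.3.3 by the lmFit and eBayes functions of limma 3.58.1 (one class, two-sided, Benjamini-Hochberg), tested on simulated data. The number of arrays limits the precision. The members and lists were chosen with earlier results of these data known. The text names each family member, each P450 gene on at least 3 arrays and the 3 genes nearest to Cyp313a1. Cyp4ae1, Cyp28d2 and Cyp4d2 were named after their values were seen. Alternatives covered centring, direction, spots, dye, moderation and each array left out.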

Additional observations from a re-analysis of the deposited data

Results flagged for a closer look

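Among 20 sets of 4 arrays checked for 1 array that lies apart, 3 stood out, and chance gives about 1 in 20. The sets overlap, since differences reuse the values of Cyp313a1 and P450 genes entered both before and after centring. The 3 nearest genes were also picked for their likeness to Cyp313a1. The count of 3 is therefore no test against chance. The centred ratio of Cyp313a1 was -0.51 on array 4, against -0.90 to -0.89 on arrays 1 to 3, so that the gap made up 0.968 of the whole range. This gap depends on the centring. Centred over all clones with a value, array 4 was at -0.55 and arrays 1 to 3 ranged from -0.96 to -0.74. The difference of Cyp313a1 from Cyp4e2 was -2.03 on array 3, against -2.39 to -2.33 on the others, a gap of 0.840 of the range. The centred ratio of Gbs-70E was -0.29 on array 2, against -0.64 to -0.59, a gap of 0.835 of the range.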

How the results depend on the processing

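Of the 980 clones tested, 5 passed on the values before centring. The count was 14 with each array centred, 32 with no column turned, 2 on clones with all 4 arrays (366 tested), 28 with a dye term on centred values, and 0 with no column turned and each array centred (86 with an unadjusted p under 0.05 in limma). In the unmoderated test it was 0 before and after centring, with 21 and 105 clones at an unadjusted p under 0.05. Leaving out each array in turn gave 1 to 5 before centring, with 1 without array 2 and 3 without array 3, and 5 to 23 after it, with 5, 23, 7 and 11 without arrays 1 to 4. After centring Cyp313a1 was among those that passed without array 2 or 4 and with a dye term, and not without array 1 or 3. Nothing is drawn from these calls either, because the gene was chosen on the contrast that each fit tests. The dye term and the unmoderated test on centred values, and centring over all clones with a value, were chosen after seeing the data.

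The mean of Cyp313a1 turned to 0.35 with no column turned, and was -0.092 when the columns were also centred. Without 1 array in turn it ranged from -1.004 to -0.67 before and from -0.89 to -0.77 after centring. Cyp313a3 moved to -0.81 and Cyp313b1 turned to -0.32 when array 1 was centred, with or without turning, and to -0.81 and -0.31 when centred over all its clones. The median of the other P450 genes turned to -0.038 with no column turned and each array centred, and ranged from 0.16 to 0.69 without 1 array. The 3 nearest genes cannot change between these readings, because the measure uses differences within an array. The cause of these shifts was not tested, beyond the column offsets and signs that each setting changes by construction. The fit is paired by construction, since each ratio sets a drug-fed pool against the normal-food pool on the same array, and no fit without that pairing was run.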

Other observations

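Among protein-coding genes next to the cluster of Cyp313a5, Cyp313a2 and Cyp313a3, chosen after their values were seen, Pglym87, a paralogue of the glycolytic enzyme phosphoglycerate mutase, had centred ratios of -0.06 on array 1 and 0.32 on array 4. svp, a nuclear receptor gene beyond the other end, had -0.48 on array 1 and -0.24 on array 2. None of the protein-coding genes within 2 places of Cyp313a1 had a value.

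Of the 366 clones on all 4 arrays, 40 were below 0 and 48 above 0 on every array after centring when arrays 3 and 4 were turned. With no column turned 22 were below 0 and 47 above 0 on every array.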
